A study of Mus musculus with 8 samples.

Results

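The comparison described here set siRNA 2 against Control in R1 cells, a mouse embryonic stem cell line. Both groups had been transfected, Control with a control siRNA and siRNA 2 with the second of the study's 2 siRNAs against CnAb1. Embryoid bodies, the aggregates in which stem cells differentiate in suspension, were grown for 48 h, and total RNA was taken 48 h after transfection. Control had 3 arrays and siRNA 2 had 2 arrays, which is every array of these groups and 5 of the 8 in the series. The other 3 arrays carried siRNA 1, directed at the same target, and entered the fit to share the estimate of the spread. The line, the time in culture and the transfection were common to all groups, and no array of untransfected cells was analysed here.

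Calcineurin is a calcium- and calmodulin-dependent phosphatase made of a catalytic A subunit and a regulatory B subunit, best known for dephosphorylating NFAT transcription factors. CnAb1 is a splice variant of the beta catalytic subunit, encoded by Ppp3cb, whose end differs from that of the conventional form. In an embryoid body the outer cells become extraembryonic endoderm, with a visceral layer that secretes serum proteins and takes up nutrients and a parietal layer that lays down basement membrane. The inner cells pass from naive pluripotency through an epiblast-like state and then, under Wnt, Nodal, BMP and FGF signals, form a primitive streak that gives rise to mesoderm and definitive endoderm.

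The lower genes described below include serum proteins of the visceral endoderm, regulators of the primitive streak and genes of neither kind. The bases before the start of 4 of them are shown to give their sequence context. Afp encodes alpha-fetoprotein, Gc the vitamin D-binding protein, Lgals2 a galactose-binding lectin and Sp5 a zinc finger factor that is a target of Wnt signalling. Each stretch is the 250 bases before the annotated start in RefSeq (GRCm38.p6), written 5′ to 3′ on the gene's strand. The Afp stretch is chr5:90490464-90490713 on the plus strand and the Gc stretch is chr5:89457899-89458148 on the minus strand. The Lgals2 stretch is chr15:78855530-78855779 on the minus strand and the Sp5 stretch is chr2:70474673-70474922 on the plus strand. Capitals mark the motif GTTAAT, the HNF1 half-site, in the first 3 and the motif ATCAAAG, a TCF/LEF site, on the opposite strand in Sp5.
Afp: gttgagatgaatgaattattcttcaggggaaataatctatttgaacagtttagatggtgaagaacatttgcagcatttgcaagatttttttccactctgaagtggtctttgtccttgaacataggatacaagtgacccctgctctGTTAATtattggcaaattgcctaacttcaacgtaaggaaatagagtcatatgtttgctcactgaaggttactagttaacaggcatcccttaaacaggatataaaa
Gc: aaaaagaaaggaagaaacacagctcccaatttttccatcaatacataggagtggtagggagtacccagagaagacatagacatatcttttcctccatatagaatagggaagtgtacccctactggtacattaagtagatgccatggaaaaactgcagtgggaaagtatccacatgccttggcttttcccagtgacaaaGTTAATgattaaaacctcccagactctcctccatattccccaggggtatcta
Lgals2: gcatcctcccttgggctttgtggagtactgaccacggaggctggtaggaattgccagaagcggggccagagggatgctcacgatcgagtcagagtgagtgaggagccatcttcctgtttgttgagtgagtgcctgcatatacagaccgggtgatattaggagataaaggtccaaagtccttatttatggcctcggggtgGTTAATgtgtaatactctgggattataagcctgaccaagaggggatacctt
Sp5: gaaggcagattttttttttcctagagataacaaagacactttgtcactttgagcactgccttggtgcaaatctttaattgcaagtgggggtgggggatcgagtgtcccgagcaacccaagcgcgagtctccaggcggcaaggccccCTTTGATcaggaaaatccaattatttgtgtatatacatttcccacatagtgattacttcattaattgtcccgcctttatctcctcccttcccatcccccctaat
GTTAAT began 105 bases before the start in Afp, 52 before it in Gc and 51 before it in Lgals2. The Sp5 match lay between 104 and 98 bases before the start. Both strands of these 250 bases were searched for 13 motifs in the 13 lower genes described below, of which 8 had a promoter in the RefSeq table. GTTAAT was found in 4 of the 8, the fourth being Foxa2, and in 6.43% of all 32851 promoters of that length. AGATAA, the site bound by GATA factors, was found in Foxa2, Lgals2 and Sp5, and in 9.99% of all promoters. ATCAAAG was found in Sp5 and in 3.21% of all promoters, CTTTGAA in T and in 4.46%, and GGAAAAT, an NFAT site, in Sp5 and in 4.16%. The other 8 motifs were not found in these windows, namely the full HNF1 site, TGATAA for GATA factors, TGTTTAC for FOXA, CAAAGTCCA for HNF4, GTCTGGAC for SMAD, AATCCACA for FOXH1, AGGTGTGA for T-box factors and TGACNNNGC for the antioxidant response element. The first of these contains GTTAAT, and none of the others contains another motif searched. The motifs, and the 4 genes shown, were chosen after the expression values were seen, and the genes shown also after their matches were seen.

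Levels are on a log2 scale, from which the 75th percentile of that array's processed signal was subtracted, so 0 is the level of the 75th percentile, and levels of different probes cannot be compared. Values for single arrays are in the order Control 1, 2 and 3, then siRNA 2 replicates 1 and 2. Of 43020 spots other than control spots, between 68.0% and 74.6% were well above background on the 5 arrays and 0 were saturated, and 22427 genes were tested. The arrays lay on 3 slides. Slide 1 held Control 1 and siRNA 2 replicate 1, slide 3 held Control 3 and siRNA 2 replicate 2, and slide 2 held Control 2 with no siRNA 2 array. Control lay at position 1 and siRNA 2 at position 3 of every slide, so position and group cannot be told apart. Whether the replicates came from separate cultures is not stated, and the p-values therefore describe the spread among these arrays, which may be technical. The number of arrays limits the precision throughout.

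The first question was whether the targeted gene was lower. Ppp3cb stood at 0.85, 0.60 and 0.71 on the Control arrays and at 0.50 and 0.70 on the siRNA 2 arrays. The lower siRNA 2 array lay under the Control arrays and the other lay among them, so the groups overlapped. The fitted difference was -0.12 ± 0.14 (SE, n = 2 and 3), and the exact permutation test (two-sided, 10 splits, smallest possible p of 0.1) gave p = 0.4. Within slide 1 Ppp3cb differed by -0.35 and within slide 3 by -0.0049. Whether this probe reads the CnAb1 variant is not known here, so it checks nothing about that variant.

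Among the other subunits, Ppp3ca, the alpha catalytic subunit, stood at 1.59, 2.31 and 1.91 in Control and at 2.56 and 2.44 under siRNA 2. Both siRNA 2 arrays lay above all Control arrays, by a fitted 0.56 ± 0.21 (SE), with p = 0.2 in the same exact permutation test and limma's adjusted p of 0.9997. Ppp3r1, the B subunit, differed by 0.15 ± 0.11 and Ppp3cc, the gamma catalytic subunit, by -0.23 ± 0.18, each with an exact permutation p of 0.4. The Ppp3cc difference was 0.07 under normexp with quantile normalization. Ppp3r2, a testis form of the B subunit, did not pass the filter on dim probes. Of 12 NFAT factors and calcineurin regulators, Nfatc4 stood lower without overlap at -0.18 and the cyclophilin Ppia higher at 0.18 (0.026 under quantile normalization). Each is 8.33% of the list, near the 8.96% lower and 7.95% higher without overlap over all genes. The median of the list was 0.04.

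Across all genes, limma called 0 of 22427 (0.0%) at an adjusted p under 0.05. The smallest adjusted p was 0.487, for Insm1. Unadjusted, 788 genes (3.51%) had a p under 0.05, of which 286 (1.28% of all tested) stood higher and 502 (2.24%) lower. A fitted difference of 2-fold or more was found upward in 18 genes (0.0803%) and downward in 79 (0.352%). In 1784 genes (7.95%) both siRNA 2 arrays lay above all 3 Control arrays and in 2010 genes (8.96%) they lay below them. No gene or list described below had a member past the adjusted threshold, so the words higher and lower describe these 5 arrays.

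The differences within slide 1 and within slide 3 share no array. Over 22420 genes they correlated with a Pearson r of 0.12 and a Spearman rho of 0.09, a description across genes, which are not independent replicates. Among the 21167 genes well above background on all 5 arrays, r was 0.10. At least 2-fold on both slides, 16 genes were higher (0.0713%), 16 were lower (0.0713%) and 17 went in opposite directions (0.0758%). The SD over genes of the difference was 0.36 between Control 1 and siRNA 2 replicate 1, both on slide 1. It was 0.29 between Control 3 and siRNA 2 replicate 2, both on slide 3. Between a Control and an siRNA 2 array on different slides it lay between 0.38 and 0.46. It was 0.41 between the siRNA 2 arrays and between 0.34 and 0.51 among the Control arrays. The smallest of these, between Control 2 and Control 3 on different slides, was below that of the slide 1 pair.

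**Figure D1:**
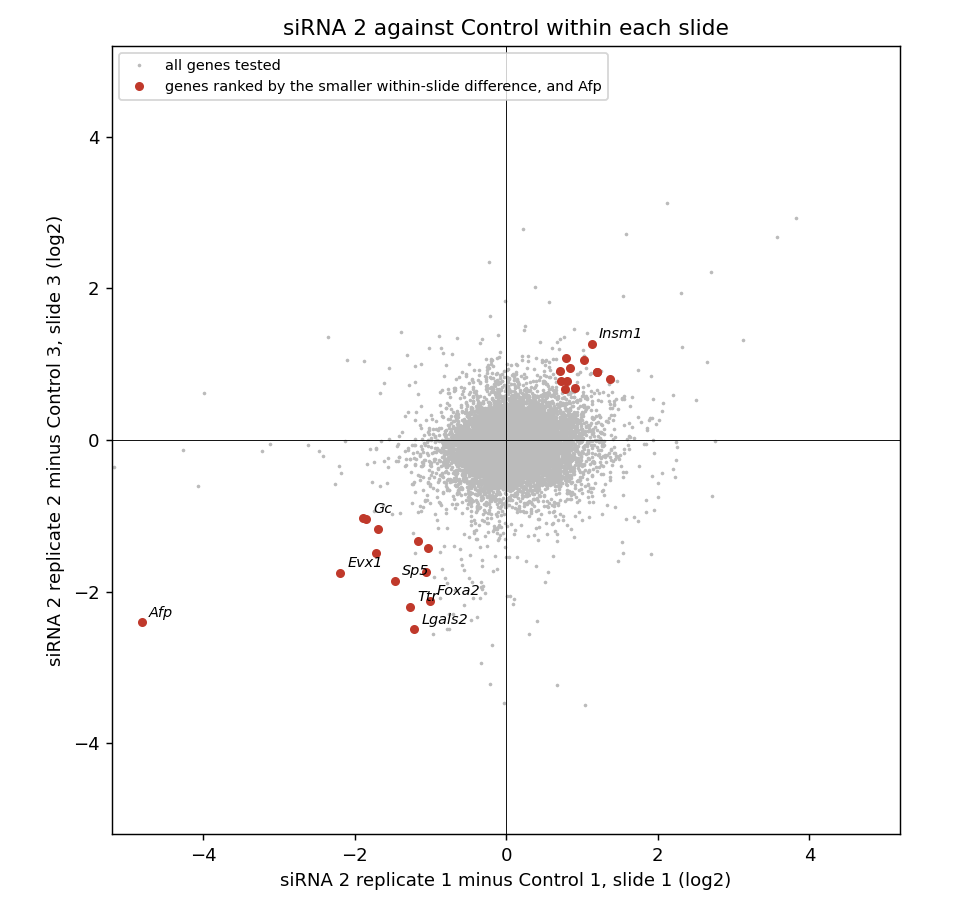
Each gene tested is a grey point at its log2 difference on slide 1 (x axis) and on slide 3 (y axis), siRNA 2 minus Control, 1 array against 1 on each slide. Most genes form a cloud around 0 with little slope (r of 0.12), and the red points are the 24 genes ranked on both slides with Afp, whose siRNA 2 signals were not well above background, so that its position marks no measured size.

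Genes with a symbol were ranked by the smaller of their within-slide differences. They had to be well above background on all 5 arrays, with groups that did not overlap. Of these there were 1334 on the higher side and 1261 on the lower, and genes without a symbol were left out. The ranking used the measured values, so what follows describes the 12 genes on each side. On the lower side, the 12 included regulators or signals of the primitive streak and early mesoderm or endoderm, namely Evx1, Fgf8, Sp5, Gsc, T and Foxa2. Foxa2 is also in the extraembryonic endoderm list described below. How common such genes were among all genes that could be ranked was not counted. Fitted differences of the 12 ran from -1.97 to -0.97, with limma's adjusted p between 0.630 and 0.9997.

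Evx1, a homeobox factor of the posterior streak, stood at -2.50, -3.69 and -2.90 in Control and at -4.69 and -4.65 under siRNA 2. Fgf8, the streak's growth factor, stood at 0.98, 0.08 and 0.68 and then at -0.74 and -0.81. In both genes Control 2 was the lowest Control array, and both siRNA 2 arrays lay at least 0.82 below it. Evx1 differed by -1.64 ± 0.41 (SE), a 3.11-fold lower level, and Fgf8 by -1.36 ± 0.31, which its other probe gave as -1.43. Sp5 stood at -0.26, -1.37 and -0.59 and then at -1.73 and -2.45, so that the siRNA 2 arrays differed from each other by more than the lower edge of Control from the nearer of them. T, the brachyury factor that defines nascent mesoderm, stood at -2.04, -3.73 and -2.73 and then at -3.92 and -3.76. For T the gap between the groups was 0.03, against a Control range of 1.69, and T differed by -1.01, or -0.61 without Control 1. Foxb1 and Sall3, a forkhead and a spalt-like zinc finger factor, differed by -1.04 and -0.97, again with Control 2 as the nearest Control array.

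The serum protein and gut genes of the lower side had another order among the Control arrays. Ttr, the thyroid hormone carrier transthyretin, stood at -1.64, -1.002 and -0.94 in Control and at -2.91 and -3.14 under siRNA 2. Lgals2 stood at -3.53, -2.53 and -2.25 and then at -4.74 and -4.75. Control 1 was the lowest Control array for both, and the groups were apart by 1.27 in Ttr and 1.21 in Lgals2. Gc stood at -3.75, -3.55 and -4.31 and then at -5.60 and -5.35, a difference of -1.60 ± 0.23 (SE) that its other probe gave as -0.95. Ugt1a6b, a glucuronosyltransferase, differed by -1.37 ± 0.40. Under normexp with quantile normalization the 12 differences lay between -1.14 and -0.20.

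Afp was not in the ranking because its probe was not well above background under siRNA 2. It stood at -2.09, -3.53 and -4.64 in Control, a wide spread, and at -6.89 and -7.04 under siRNA 2. The groups did not overlap, and on the processed signals Afp was at least 6.71-fold lower. Under normexp with quantile normalization its difference was -0.91, so the bound does not hold for that processing. A bound sets the Control mean against the higher of the probe's own value and the lowest value well above background on each siRNA 2 array. On both slides the siRNA 2 array lay below the Control array, with only a bound for its level. Of the next 4 bounds by size, Trabd2b was at least 1.88-fold, Hspb7 at least 1.80-fold and C1qc at least 1.74-fold lower. Serpinb5, a serpin of epithelia, was at least 1.80-fold higher. Under normexp with quantile normalization these 4 genes differed by -0.15, -0.185, -0.14 and 0.17, in that order. For Hspb7 Control 1 stood at -4.42 and the other Control arrays at -5.77 and -5.76, and for C1qc Control 2 stood at -4.62 and the others at -5.55 and -5.75, so in each 1 Control array stood above the others.

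Among the 12 ranked genes of the higher side the differences were smaller, from 0.52 to 1.18, and from 0.19 to 1.03 under normexp with quantile normalization. Insm1, a zinc finger transcription factor that promotes neuroendocrine differentiation, stood at -1.01, -0.94 and -0.96 in Control and at 0.12 and 0.31 under siRNA 2. Its Control arrays lay within 0.08 of each other, and it was higher by 1.18 ± 0.12 (SE), or 2.27-fold, with limma's adjusted p of 0.487. Calml4, a calmodulin-like protein, stood at -2.55, -2.52 and -2.54 and then at -1.71 and -1.59, with an adjusted p of 0.918. Its Control arrays lay within 0.03 of each other, and the groups were 0.81 apart. Lmx1a, a LIM homeobox factor, differed by 1.00 ± 0.41 and Pla2g4a, the cytosolic phospholipase that releases arachidonic acid, by 0.84 ± 0.26. Under normexp with quantile normalization Lmx1a stood at 0.21 and Insm1 at 1.03.

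In Pla2g4a and in the higher genes not yet named, Control 2 was the Control array nearest to siRNA 2. The gap in Pla2g4a was 0.23, against a Control range of 0.66, and in 4 of the others the gap was under 0.05. The imprinted gene Peg10 stood at -2.34, -1.64 and -2.33 in Control and at -1.62 and -1.55 under siRNA 2. The groups lay 0.02 apart, against a Control range of 0.70. Rhox6, a homeobox gene on the X chromosome, Mep1b, a meprin protease subunit, and Sv2c, a synaptic vesicle protein, had gaps of 0.045, 0.031 and 0.021. Wdr95 and Col6a4 differed by 0.76 and 0.88, whereas another probe of each gave -0.40 and -0.38. Tsx and Nell1 differed by 0.85 and 0.60.

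**Figure D2:**
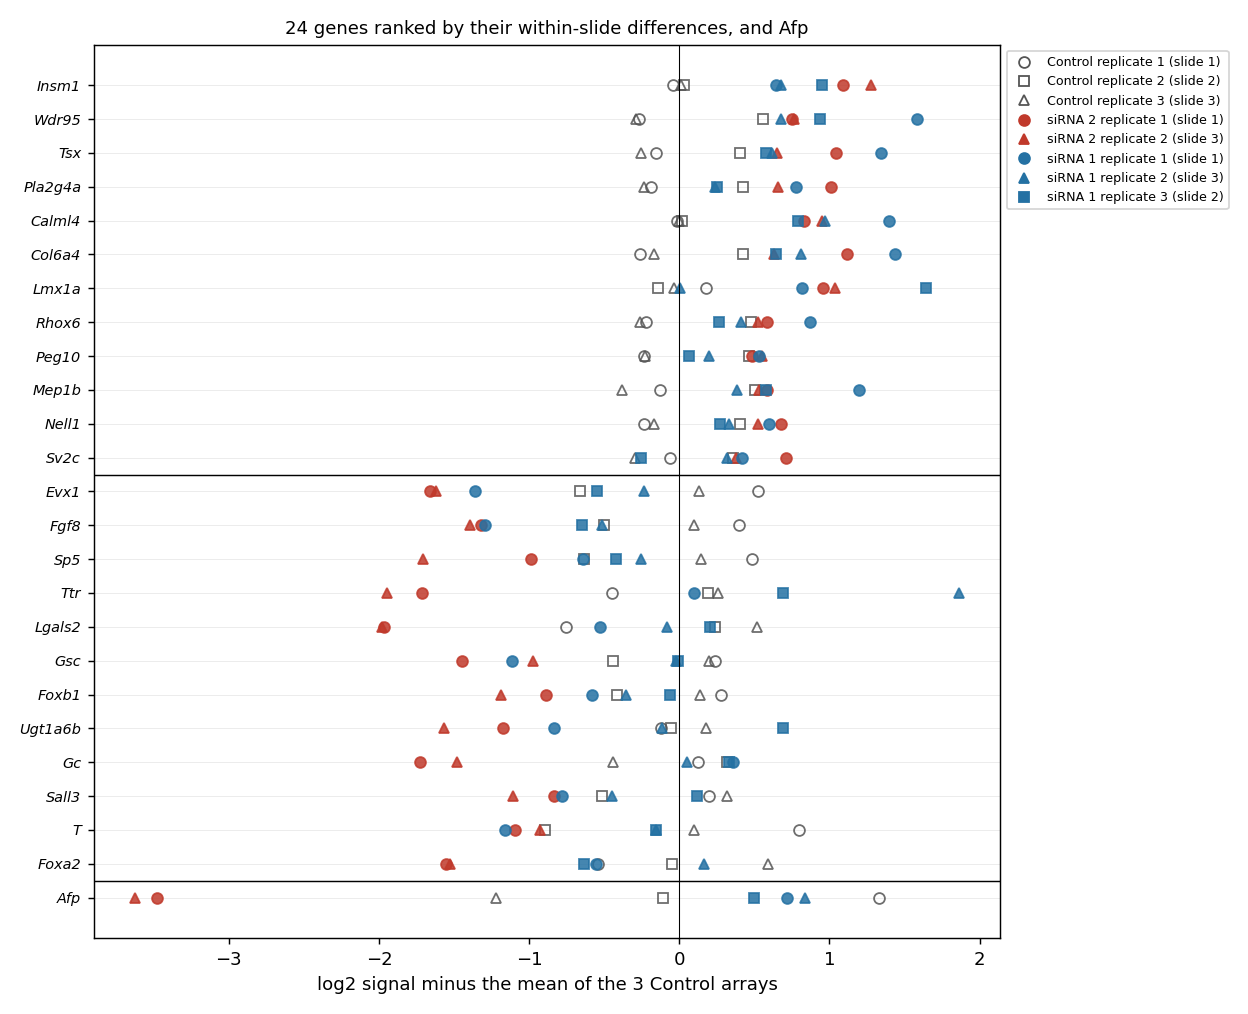
The x axis gives each array's log2 signal minus the mean of the 3 Control arrays, for the 12 higher genes (top), the 12 lower genes (middle) and Afp (bottom); shapes mark the slide and colours the group. Both red siRNA 2 symbols lie outside the open Control symbols in every row, as the ranking required, by 1.06 in Insm1 and by 0.03 in T, and the blue siRNA 1 symbols are shown for comparison.

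Genes were also described in 28 lists by cell type and pathway, beside the same measures over all genes, whose median difference was -0.01. The regulators of extraembryonic endoderm had the lowest median, -0.89, and 10 of their 14 members stood lower without overlap, against 8.96% of all genes. In bulk RNA, fewer cells of a type and less RNA per cell cannot be told apart. Gata6, the factor that starts primitive endoderm, stood at -2.63, -2.05 and -1.20 in Control and at -3.07 and -3.28 under siRNA 2. Foxa2, a forkhead factor of endoderm, stood at -1.69, -1.20 and -0.56 and then at -2.70 and -2.68. Control 1 was the lowest Control array in 9 of the 10 and Control 3 the highest in 9. Foxa2 differed by -1.54 ± 0.36 (SE), with its other probe at -1.85, and Gata6 by -1.21 ± 0.44.

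Hnf4a, a nuclear receptor that drives visceral endoderm genes, differed by -1.22, Sox7 by -1.17, the PDGF receptor gene Pdgfra by -1.12, Cited1 by -1.04 and Gata4 by -0.74, and their groups did not overlap. Sox17 differed by -1.04 but its groups overlapped, since Control 1 stood at -3.06 and siRNA 2 replicate 1 at -2.95. Of this list, 7 of 14 members had an unadjusted p under 0.05 in limma's fit, all lower, against 2.24% of all genes. The size of the list's difference depended on the slide, with a median of -0.32 within slide 1 and -1.41 within slide 3. Measured from the Control mean of each gene, the list's median was -0.44, 0.01 and 0.43 on the Control arrays and -0.83 and -0.85 on the siRNA 2 arrays. The siRNA 2 arrays were thus alike, and the Control arrays of slides 1 and 3 lay 0.87 apart by these medians. Without Control 3 the median of the fitted differences was -0.58.

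Proteins that visceral endoderm secretes were mixed. Of 21 tested, 8 stood lower and 3 higher without overlap (38.1% and 14.3%, against 8.96% and 7.95% of all genes), with a median of -0.19. Besides Afp, Ttr and Gc, the lower members were the trypsin inhibitor Spink1 at -1.46, the apolipoproteins Apob at -1.12, Apoa4 at -1.08 and Apom at -0.56, and the cystatin Cst3 at -0.21. Apoa4 was well above background on 1 of the 2 siRNA 2 arrays, and its difference was -0.22 under normexp with quantile normalization. Spink1 stood at 1.13, 1.86 and 2.11 in Control and at 0.17 and 0.30 under siRNA 2, and the groups were 0.82 apart. Fgg, a fibrinogen chain, Trf, transferrin, and Ahsg, fetuin A, were the higher members, at 0.32, 0.20 and 0.18. The median of this list was 0.10 within slide 1 and -0.32 within slide 3, and it was -0.35 without Control 1 and -0.10 without Control 2.

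The uptake machinery of visceral endoderm stood lower without overlap in 9 of 20 members (45%, against 8.96% of all genes), higher in 0, with a median of -0.31. Cubn, the cubilin receptor that takes up vitamin B12 and proteins, stood at 1.32, 2.22 and 2.49 in Control and at 0.76 and 0.77 under siRNA 2. Its partner Amn stood at 0.25, 0.77 and 1.22 and then at -0.23 and -0.30. Neither gene's groups overlapped, and they differed by -1.25 ± 0.34 and -1.01 ± 0.29 (SE). Ctsh, a lysosomal cathepsin, had the largest difference of the list at -1.62 ± 0.41, from 1.24, 1.93 and 2.63 to 0.49 and 0.14. The protease legumain, Lgmn, the endocytic adaptor Dab2 and the cholesterol acyltransferase Soat2 differed by -0.59, -0.59 and -0.56, with larger differences on slide 3. Within slide 1 these 3 genes differed by -0.06, -0.03 and -0.09, and within slide 3 by -0.98, -0.97 and -1.07. Cubn, Amn and Ctsh differed by -0.56, -0.48 and -0.75 within slide 1. Within slide 3 they differed by -1.72, -1.52 and -2.49. The list median was -0.055 within slide 1 and -0.61 within slide 3. Control 3 was the highest Control array in 7 of the 9 lower members.

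Parietal endoderm and basement membrane genes had a median of -0.25, with 8 of 23 members lower (34.8%, against 8.96% of all genes) and 1 higher without overlap. The collagen IV chains Col4a1 and Col4a2, made by the same cells as a heterotrimer, differed by -1.21 ± 0.42 and -1.25 ± 0.45 (SE). Col4a1 stood at 0.10, 0.44 and 1.52 in Control and at -0.68 and -0.36 under siRNA 2. The high value was that of Control 3, which was the highest Control array in all 8 lower members of this list. Srgn, the proteoglycan serglycin, differed by -1.50 ± 0.43, in a fit that lacked 1 siRNA 1 array whose spot was an outlier. The collagen chaperone Serpinh1 differed by -0.74, the parathyroid hormone receptor Pth1r by -0.67 and the laminin chains Lamc1 and Lamb1 by -0.42 and -0.25. Without Control 3, Col4a1 stood at -0.79, Pth1r at -0.26 and Lamc1 at -0.21. Within slide 1 the median was 0.0075, and within slide 3 it was -0.62. It was -0.16 without Control 3 and -0.39 without siRNA 2 replicate 1.

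Anterior visceral and definitive endoderm genes stood lower without overlap in 6 of 17 members (35.3%, against 8.96% of all genes), higher in 0, with a median of -0.23. Trh, thyrotropin-releasing hormone, stood at 6.21, 5.49 and 5.81 in Control and at 4.59 and 4.96 under siRNA 2. The groups were 0.53 apart, and the difference was -1.06 ± 0.27 (SE). Ihh, the hedgehog ligand of visceral endoderm, differed by -0.70 and the Wnt antagonist Dkk1 by -0.68. Without Control 2, Dkk1 stood at -0.44. Hhex, a homeobox factor of anterior endoderm, differed by -0.23. Foxa2 and Gsc, which are also in other lists, made up the remaining lower members. The median was -0.11 without Control 2 and -0.018 without siRNA 2 replicate 2.

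Transcription factors of the streak and mesoderm stood lower without overlap in 8 of 22 members (36.4%, against 8.96% of all genes) and higher in 1, with a median of -0.24. The lower members included Evx1, Sp5, Gsc, T, Eomes, Sp8 and Hand2. Eomes, the T-box factor of early streak, stood at 1.77, 1.35 and 1.66 in Control and at 0.77 and 0.83 under siRNA 2. The siRNA 2 arrays were closely matched and lay below every Control array, and Eomes differed by -0.80 ± 0.22 (SE). Gsc, the homeobox factor of the anterior streak, differed by -1.21 ± 0.38 and Sp8 by -0.66 ± 0.18.

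Not all members of the same list shared this. Tbx6, Msgn1, Hand1, Isl1, Tbx20 and Cdx1 had overlapping groups, and Mesp2, a factor of presomitic mesoderm, was the higher member at 0.17. Mixl1 and Mesp1 did not pass the filter on dim probes. Of the 22 members, 9 were lower and 5 higher on both slides, against 28.1% and 25.0% of all genes. The list median was 0.01 within slide 1 and -0.26 within slide 3, and it was -0.11 without Control 2 and -0.046 without siRNA 2 replicate 2.

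Ligands, antagonists and targets of streak signalling stood lower without overlap in 12 of 32 members (37.5%, against 8.96% of all genes) and higher in 2, with a median of -0.16. Among ligands, Nodal stood at 3.83, 3.43 and 3.70 in Control and at 3.25 and 3.25 under siRNA 2, a difference of -0.41 ± 0.13 (SE). Wnt3, which starts the streak, stood at -0.75, -1.69 and -1.01 and then at -1.82 and -1.81. Wnt8a stood at 0.48, -0.30 and 0.44 and then at -0.41 and -0.38. For both Wnt genes Control 2 lay near the siRNA 2 arrays, and the differences were -0.66 and -0.60. Bmp2 differed by -0.84. The Nodal co-receptor Tdgf1 differed by -0.25. Without Control 2 the list median was -0.092.

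Of the pathway targets, Axin2, a Wnt target and antagonist, stood at -3.24, -3.39 and -3.30 in Control and at -4.38 and -4.17 under siRNA 2. Control arrays lay within a range of 0.15, and Axin2 differed by -0.96 ± 0.41 (SE), or -0.47 by its other probe. Its siRNA 1 arrays, from -4.23 to -2.60, entered this SE. Id3, a BMP target, differed by -0.31 and Spry2, an FGF feedback inhibitor, by -0.14. Against these, Fgf4 and the ERK phosphatase Dusp6 stood higher, by 0.45 and 0.19.

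**Figure D3:**
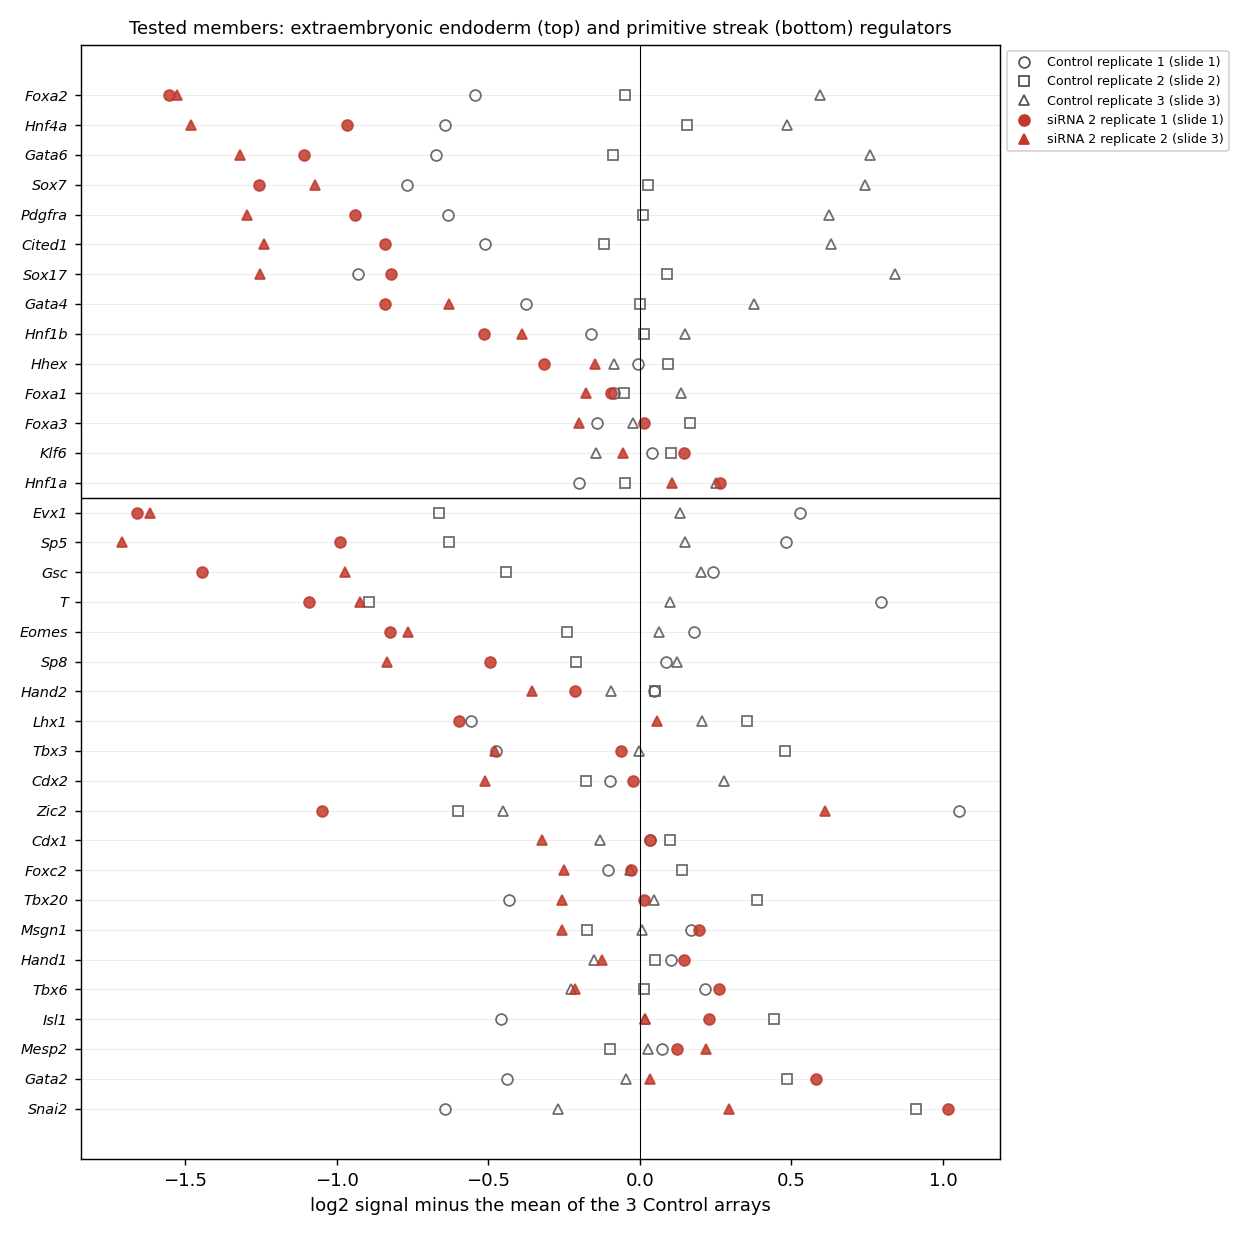
Each row is a tested member of the extraembryonic endoderm list (14, top) or 1 of 21 members of the streak and mesoderm list (bottom), and the x axis is the log2 signal minus the mean of the 3 Control arrays, with shapes for slides. Red siRNA 2 symbols lie left of all open Control symbols in 10 and 7 rows; in these rows Control 3 (triangles) is the highest Control array in 9 of the 10 and Control 2 (squares) the lowest in 6 of the 7.

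Of 24 naive pluripotency genes, 18 stood higher by the fitted difference, with a median of 0.21. Without overlap 3 were higher (7.95% of all genes were) and 0 lower. Within slides, 18 members were higher on both slides and 0 lower on both, against 25.0% and 28.1% of all genes. The medians were 0.60 within slide 1 and 0.30 within slide 3. Control 2, which had no siRNA 2 array on its slide, was the highest Control array in 23 of the 24. In 16 members both siRNA 2 arrays lay above Control 1 and Control 3. From each gene's Control mean, the median of the list was -0.31, 0.45 and -0.20 on the Control arrays and 0.41 and 0.09 on the siRNA 2 arrays. Esrrb, a nuclear receptor of the naive network, stood at 0.90, 2.16 and 1.07 in Control and at 2.12 and 1.60 under siRNA 2. Zfp42, also called Rex1, stood at 1.60, 2.53 and 1.69 and then at 2.61 and 2.07. Control 2 lay above both siRNA 2 arrays in Esrrb and between them in Zfp42, and the other Control arrays lay below both. The median difference of the list was 0.43 without Control 2 and 0.14 without Control 1 or Control 3, and it was 0.090 without siRNA 2 replicate 1 and 0.41 without replicate 2.

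The members without overlap were Gbx2, Fgf4 and Dppa3. Gbx2, a homeobox factor that acts downstream of Stat3, stood at -1.68, -1.48 and -1.69 in Control and at -1.05 and -1.08 under siRNA 2. Fgf4, the ligand that drives exit from the naive state, stood at 3.33, 3.40 and 3.27 and then at 3.76 and 3.81. In Gbx2 Control 2 lay above the other Control arrays by less than its distance to siRNA 2, and in Fgf4 near them, and they differed by 0.55 ± 0.12 and 0.45 ± 0.10 (SE). Dppa3 differed by 0.24, with Control 2 and siRNA 2 replicate 1 both at -1.64. Klf4, Spp1, Socs3 and Tbx3 went the other way on slide 3, at -0.46, -0.39, -0.66 and -0.47, and were higher on slide 1, at 0.85, 0.58, 0.31 and 0.41. Nanog differed by 0.09 and Sox2 by 0.08, with overlapping groups.

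Formative and primed epiblast genes stood higher without overlap in 5 of 23 members (21.7%, against 7.95% of all genes) and lower in 1, with a median of 0.05. Tcf15, a bHLH factor of the formative state, stood at 2.34, 2.24 and 2.25 in Control and at 2.77 and 2.71 under siRNA 2. Pou3f1, or Oct6, stood at 4.70, 4.85 and 4.62 and then at 5.03 and 5.08. Both lay clear of Control and differed by 0.46 ± 0.10 and 0.33 ± 0.09 (SE), and they were followed by Sox3 at 0.25, Sox4 at 0.22 and Utf1 at 0.20. Fgf5 was the lower member at -0.19. The early neuroectoderm list shares Pou3f1 and Sox3. Of its 16 members, 2 stood higher without overlap (12.5%, against 7.95% of all genes) and 1 lower (6.25%, against 8.96%). The lower member was the zinc finger gene Zfp521, at -0.77, and the list median was -0.04.

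Genes of the 2-cell-like state, a rare fluctuation of stem cells towards the 2-cell embryo, stood lower in 10 of 11 members, 4 of them without overlap (36.4%, against 8.96% of all genes), with a median of -0.23. Usp17lb, a deubiquitinase of that family, stood at -3.47, -3.53 and -3.48 in Control and at -3.93 and -4.41 under siRNA 2. Its Control arrays had a range of 0.06, and the difference was -0.68 ± 0.17 (SE). Tcstv1 differed by -0.54, Usp17la by -0.23 and Zscan4c by -0.11. Members of 1 such family are near-identical copies, so their probes may read each other's transcripts. Usp17lb and Usp17la are of 1 family and may therefore not be separate measurements, whereas Tcstv1 and Zscan4c are of other families. The list median was -0.14 without Control 2, -0.11 without Control 3, -0.065 without siRNA 2 replicate 1 and -0.44 without replicate 2.

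**Figure D4:**
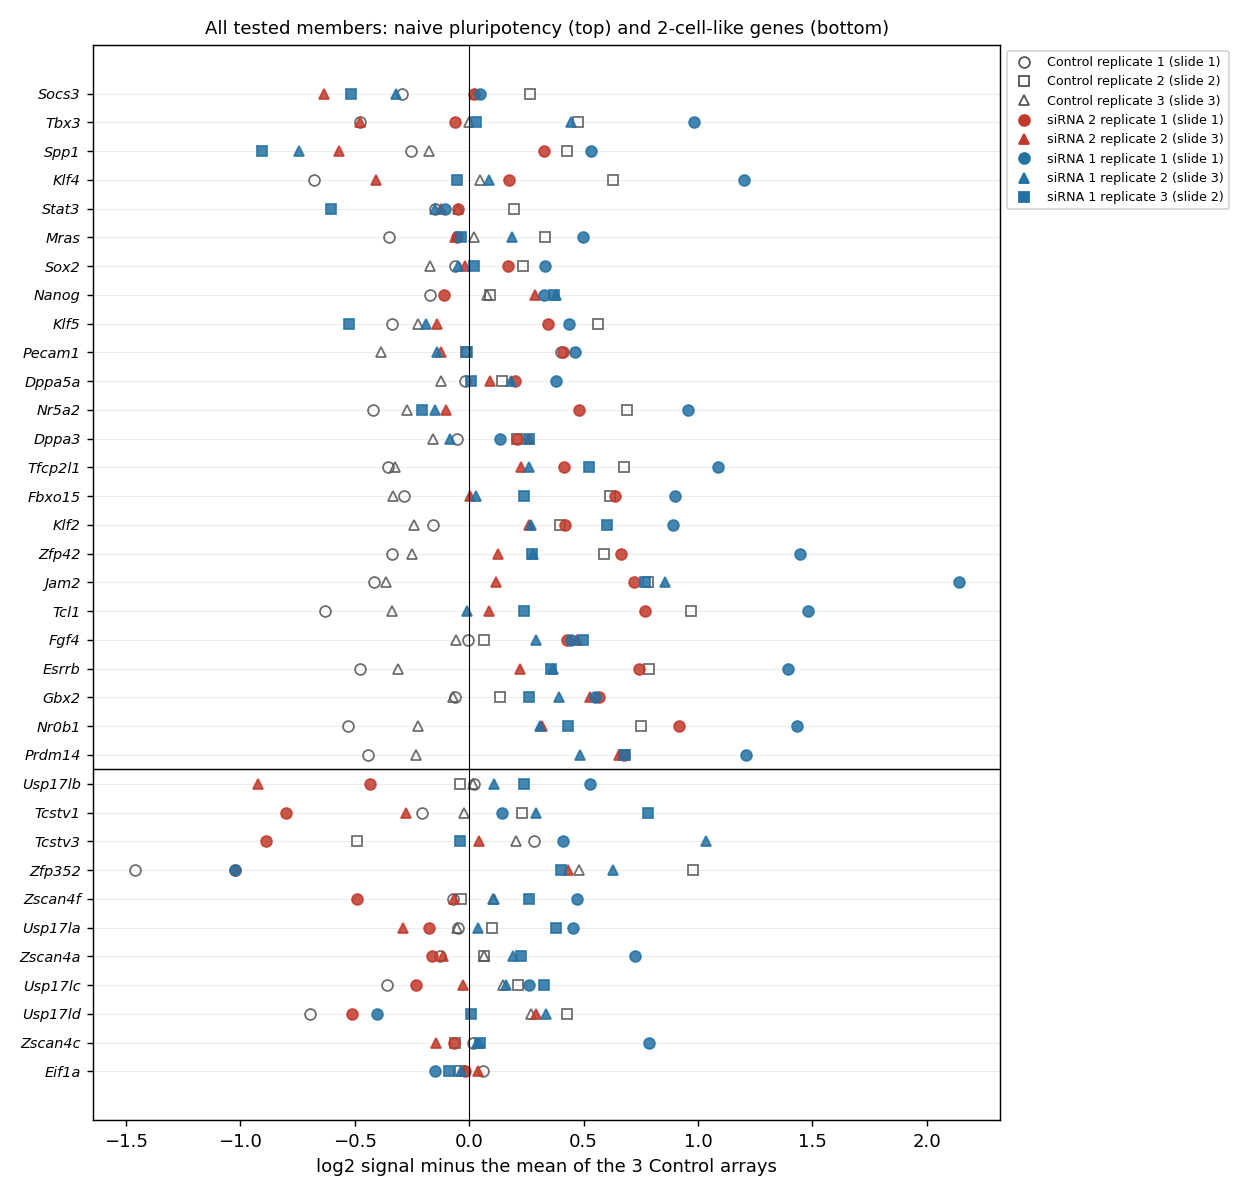
Each row is a tested member of the naive pluripotency list (24, top) or the 2-cell-like list (11, bottom), and the x axis is the log2 signal minus the mean of the 3 Control arrays. In 23 of the 24 upper rows the open Control 2 square is the Control array farthest right; in 10 of the 11 lower rows the fitted siRNA 2 level is below that of siRNA 1 (blue).

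Smooth and cardiac muscle and cytoskeletal genes stood lower without overlap in 7 of 22 members (31.8%, against 8.96% of all genes) and higher in 1, with a median of -0.16. Tagln, transgelin, differed by -0.45 ± 0.17 (SE), the myosin light chain Myl9 by -0.40, smooth muscle actin Acta2 by -0.34 and the tropomyosin Tpm1 by -0.31. Actc1, cardiac actin, rested on 1 array. It stood at 1.02, -2.92 and -2.51 in Control and at -3.05 and -3.11 under siRNA 2. Control 1 alone was high, and the difference of -1.61 had an SE of 1.06 and was -0.37 without that array. Myl4, an atrial light chain, was the higher member at 0.40.

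Fibroblast genes, included because feeder cells could be present, stood lower without overlap in 5 of 19 (26.3%, against 8.96% of all genes) and higher in 1, with a median of -0.10. Col6a1 and Col6a2, collagen VI chains, differed by -0.55 and -0.31. Fap, a fibroblast surface protease, was well above background on every Control array but on neither siRNA 2 array. On the processed signals it was at least 1.63-fold lower, and its difference under normexp with quantile normalization was -0.14. Loxl1, a lysyl oxidase, stood higher at 0.22.

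The remaining lists are described by their counts without overlap, to be read against 7.95% higher and 8.96% lower over all genes. In the interferon, neuroendocrine, cell cycle and imprinted lists the lower share, between 8.0% and 9.5%, was near that of all genes, as was the higher share in the epithelial and Akt lists, at 8.3% and 8.7%. Antioxidant genes were higher in 4 of 22 and lower in 1 (median 0.10). Among them Nqo1, a quinone reductase, stood at -1.47, -1.46 and -1.50 in Control and at -0.83 and -0.84 under siRNA 2. The range was 0.04 in Control and 0.01 under siRNA 2, and Nqo1 differed by 0.64 ± 0.08 (SE), with limma's adjusted p of 0.525. The ferritin chains Ftl1 and Fth1 differed by 0.29 and 0.26. In the neuroendocrine and neuronal list, 3 of 24 were higher and 2 lower (median 0.06). Besides Insm1, peripherin, Prph, stood higher by 0.60 ± 0.08 with an adjusted p of 0.541 in limma's fit, and the growth cone protein Gap43 by 0.52. The neurofilament gene Nefl differed by -0.84.

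Imprinted genes were higher in 4 of 21 and lower in 2 (median 0.10). These were Phlda2 at 0.56, Peg10, Cdkn1c at 0.47 and Mest at 0.32 on the higher side. Glycolysis and hypoxia genes were higher in 5 of 25 and lower in 1 (median 0.12). Fbp1, an enzyme of gluconeogenesis, stood higher by 0.50 ± 0.08 (SE) and Vegfa differed by -0.44 ± 0.11. Gapdh and Aldoa, at 0.12 and 0.15, were at -0.0069 and 0.028 under quantile normalization and at -0.05 and -0.0063 under normexp with quantile normalization. ATF4 and endoplasmic reticulum stress genes were lower in 5 of 18, with Atf3 at -0.50, and higher in 1 (median 0.003). Endothelial and blood genes were higher in 3 of 17, with Lmo2 at 0.51, and lower in 2, with the VEGF receptor Flt1 at -0.47 (median 0.14).

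Growth arrest and p53 genes were lower in 3 of 20 and higher in 1, Gadd45g at 0.60 (median 0.02). Cell cycle genes were higher in 4 of 25 and lower in 2 (median 0.01). Cholesterol and fatty acid synthesis genes were higher in 3 of 24 and lower in 1 (median 0.04), where Acaca at 0.07 was at -0.013 without background correction and Srebf1 at -0.04 was at 0.012 with quantile normalization. Interferon and double-stranded RNA response genes were lower in 2 of 21 and higher in 0 (median 0.04). Trophectoderm genes were lower in 2 of 17, Eomes and Krt8, and higher in 0 (median 0.04). Epithelial adhesion genes were higher in 2 of 24 and lower in 1 (median -0.02), and Akt, mTOR, Gsk3 and COG genes higher in 2 of 23 and lower in 1 (median 0.003).

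**Figure D5:**
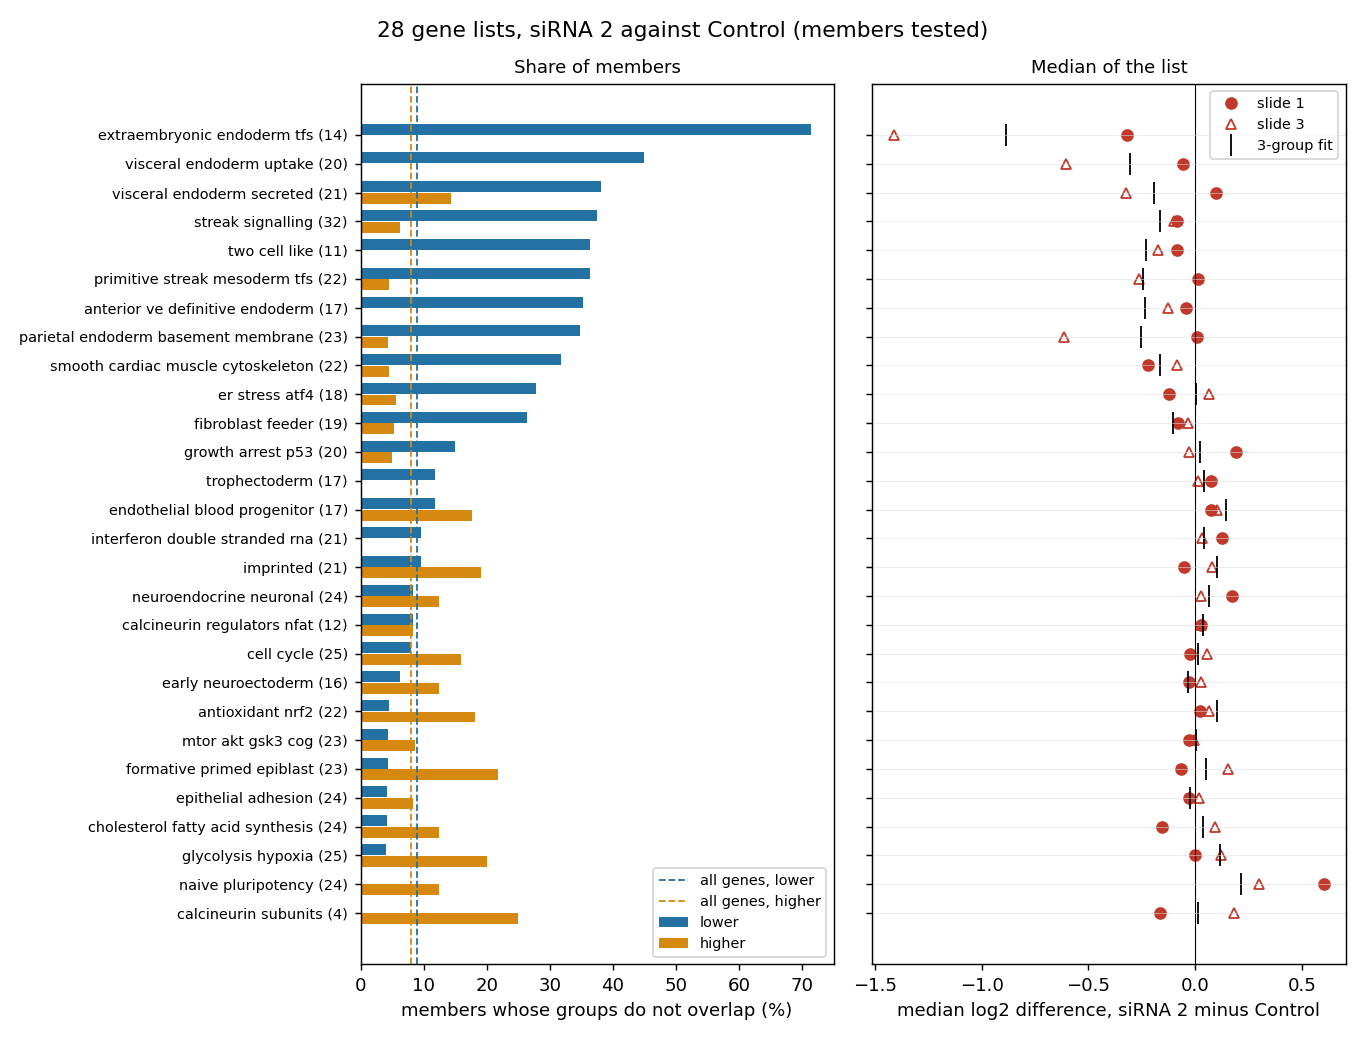
Left, the share of tested members (in %, number in parentheses) whose siRNA 2 arrays both lie below (blue) or above (orange) all Control arrays, with dashed lines at 8.96% and 7.95% for all genes. Right, the median log2 difference of each list within slide 1, within slide 3 and in the fit; the extraembryonic endoderm list reaches -1.41 on slide 3 and -0.32 on slide 1, and the naive list 0.60 on slide 1 and 0.30 on slide 3.

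Short lists of defining markers were read beside these results. Of 13 extraembryonic endoderm markers tested, 13 were well above background on all Control arrays and 12 on both siRNA 2 arrays, Afp being the exception. Their mean level lay between -1.30 and -0.37 on the Control arrays and between -2.19 and -2.08 on the siRNA 2 arrays, without overlap. The 6 streak and mesoderm markers lay between -1.74 and -0.85 and then between -2.19 and -2.15, again without overlap. Those 6 are T, Eomes, Evx1, Fgf8, Wnt3 and Tbx6, all described above. Many of the 13 extraembryonic markers were also described above, so neither result is separate from the earlier ones. All 8 markers of undifferentiated stem cells were well above background on every array, as the labelled cell type has it, between 1.40 and 1.86 in Control and between 1.59 and 1.79 under siRNA 2. The 5 neuroectoderm markers lay between -2.49 and -2.18 and then between -2.92 and -2.26, and the 4 trophoblast markers between -3.80 and -3.45 and then between -3.68 and -3.60, with overlap in both. The 7 fibroblast markers tested lay between -1.87 and -1.68 and then between -2.12 and -1.86, and Lum and Postn did not pass the filter. The part of these cell types in the other differences was not tested.

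A last comparison asked where siRNA 2 differed from siRNA 1 against the same target, 2 arrays against 3 in the same fit. Limma called 0 of 22427 genes (0.0%), with a smallest adjusted p of 0.542 and 778 genes (3.47%) at an unadjusted p under 0.05. Afp stood at -2.70, -2.58 and -2.92 on the siRNA 1 arrays, all above the siRNA 2 arrays, whose signals were not well above background. Ttr stood at -1.09, 0.67 and -0.50 under siRNA 1, a difference of -2.71. Gc differed between the siRNAs by -1.85, Lgals2 by -1.84, Ctsh by -1.60, Spink1 by -1.54, Hnf4a by -1.46 and Foxa2 by -1.20.

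Evx1 and Fgf8 differed less between the siRNAs, by -0.92 and -0.54, and their siRNA 1 arrays stood at -4.39, -3.26 and -3.58 and at -0.71, 0.07 and -0.07. The medians of siRNA 2 minus siRNA 1 were -0.52 for the extraembryonic endoderm list, -0.30 for the uptake list and -0.29 for the secreted list. Over all genes the median was -0.02. For streak factors the median was -0.30, for streak signalling -0.15 and for naive pluripotency -0.09. The 2-cell-like list stood at -0.52, lower in 10 of 11 members. Of them, 5 had an unadjusted p under 0.05 in limma's fit, against 3.47% of all genes in either direction. Probes of 1 family may read each other's transcripts, so these members may not be separate measurements. On the higher side, Insm1 differed from siRNA 1 by 0.43, Nqo1 by 0.31, Prph by 0.28 and Pou3f1 by 0.26. Over the 12 higher genes ranked above, siRNA 2 minus siRNA 1 ran from -0.31 in Wdr95 to 0.43 in Insm1. Of these, 1 had an unadjusted p under 0.05 in limma's fit, against 7 of the 12 lower genes. The ranking had picked these genes by the same siRNA 2 arrays, so the counts do not test a difference between the siRNAs. Calml4 stood at -0.16, Col6a4 at -0.09 and Tsx at 0.0018. The muscle and fibroblast lists had medians of 0.13 and 0.17. Both siRNA groups were compared with the same Control arrays, so their differences from Control are not independent.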

How the data were processed

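Total RNA of 8 samples was measured on 1-colour (Cy3) Agilent arrays. Each deposited scanner file holds spot intensity values, extracted by the authors, per the file headers, with version 10.7.3.1 of Agilent's Feature Extraction, corrected for background within the array and not scaled between arrays. A deposited value table holds log2 values that follow the scanner signals after scaling to each array's 75th percentile and centring each probe on its median over the 8 arrays. RMA is listed, without a role, in the submitters' processing notes. The table's column medians lay between -0.04 and 0.02. Its columns for Control 2 and Control 3 follow each other's scanner file (r of 0.9999 against -0.05 with their own). The scanner files were used, and their slide and position were read from each file itself, so the swap does not touch the within-slide values.

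The processed signals were scaled to the 75th percentile of their array and tested on the log2 scale, without control and outlier spots, with spots of a probe averaged. Accessions were matched to symbols through a RefSeq table of GRCm38.p6. Of 39429 probes, 26418 matched and 13011 are unnamed here. For each gene the probe with the highest mean was taken, and it was tested if 1 or more groups had it well above background on all their arrays. That left 22427 genes, 15566 of them with a symbol. Limma 3.58.1 in R 4.3.3 fitted the 3 groups in 1 model (5 residual and 2.125 prior degrees of freedom), with Benjamini-Hochberg adjusted p under 0.05 as the threshold. Of 50 further probes of the genes named, 43 had the sign of the probe used. On simulated arrays for siRNA 2 against Control, without slide effects, 50.2% of 2-fold and 88.7% of 4-fold changes in 200 of 22427 genes were recovered. The spread of each simulated gene was drawn at random, so these shares do not say what was missed on the real arrays.

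The groups compared, the 28 lists and the rules for genes to name were chosen with earlier results of these data known. Genes named were chosen among those with a symbol. They are the calcineurin subunits, 12 on each side ranked by the smaller within-slide difference, and the 5 largest bounds. Added to these are up to 6 members per list with non-overlapping groups, and genes an earlier account of these data named. No gene passed the threshold with all arrays. Other list members named were chosen after their values were seen. Files were read in Python 3.11.15 (pandas 2.3.3, numpy 2.4.6), and plots were made with matplotlib 3.10.9. Alternatives were other normalizations, background corrections (normexp with an offset of 50 used the median spot signal), filters, probes per gene, groups in the fit, spread models, blocks, single slides and leaving out each array. A value of 1 list member is not reported here, though it is counted in its list.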

Additional observations from a re-analysis of the deposited data

Results flagged for a closer look

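In 12 of 28 lists the median difference between siRNA 2 and Control had opposite signs within slide 1 and within slide 3, and the difference between slides was not tested. The medians on slides 1 and 3 were -0.17 and 0.18 for calcineurin subunits, 0.098 and -0.32 for secreted proteins, 0.0075 and -0.62 for parietal endoderm, 0.015 and -0.26 for streak factors, -0.067 and 0.15 for formative epiblast, -0.0297 and 0.027 for neuroectoderm, 0.19 and -0.0296 for growth arrest, -0.022 and 0.056 for cell cycle, -0.12 and 0.063 for ATF4, -0.15 and 0.092 for cholesterol, -0.028 and 0.019 for epithelial and -0.053 and 0.078 for imprinted. Each slide gives 1 array against 1, so these medians carry no replicate error.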

How the results depend on the processing

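Limma called 0 genes for siRNA 2 against Control under every alternative run except without siRNA 2 replicate 2, where it called 1 gene that has no symbol here (adjusted p = 0.0484), so leaving out single arrays gave 0 to 1. Against siRNA 1 it called 0 under every alternative run. Whether the replicate numbers pair the arrays is not settled. By the scanner files' numbers, deviations from the group means correlated by 0.345 for number 1, which shares a slide. They correlated by -0.0415 for number 2, which does not, and by 0.555 for the other pair on a slide. In the deposited value table Control 2 and Control 3 are exchanged against these files, and by its numbers the 0.555 pair would be number 2. The deviations of the 2 siRNA 2 arrays are exact opposites, so these correlations are not independent. With the replicate block limma called 0 genes, and with slide as a block 0, where the smallest adjusted p was 0.9999. List medians moved by more than the spread of the list's array medians within groups as follows, and the cause was not tested. With array weights the median was -1.24 for extraembryonic endoderm, -0.094 for streak signalling, -0.071 for muscle and 0.018 for imprinted. With median scaling the median was -0.11 for streak signalling, 0.15 for antioxidant, 0.19 for endothelial, 0.061 for cell cycle, 0.16 for glycolysis and 0.024 for epithelial. Without background correction the median was -0.099 for anterior and definitive endoderm, -0.11 for streak factors, -0.12 for streak signalling, -0.097 for muscle, 0.085 for endothelial and 0.046 for glycolysis. Without a filter on dim probes the median was 0.053 for endothelial. With normexp and quantile normalization the median was 0.13 for calcineurin subunits, -0.49 for extraembryonic endoderm, -0.067 for anterior and definitive endoderm, -0.078 for streak factors, -0.099 for streak signalling, 0.051 for antioxidant, -0.057 for muscle, 0.057 for endothelial and 0.022 for glycolysis. With quantile normalization the median was 0.033 for glycolysis. With the replicate block the median was 0.074 for glycolysis and 0.024 for epithelial. With slide as a block the median was -0.099 for streak signalling and 0.077 for glycolysis. Within slide 1 alone the median was -0.17 for calcineurin subunits, -0.32 for extraembryonic endoderm, 0.098 for secreted proteins, -0.055 for uptake, 0.0075 for parietal endoderm, -0.045 for anterior and definitive endoderm, 0.015 for streak factors, -0.085 for streak signalling, 0.60 for naive pluripotency, -0.067 for formative epiblast, 0.17 for neuroendocrine, 0.024 for antioxidant, 0.19 for growth arrest, -0.22 for muscle, 0.072 for endothelial, 0.0014 for glycolysis, -0.12 for ATF4, -0.15 for cholesterol and -0.053 for imprinted. Within slide 3 alone the median was 0.18 for calcineurin subunits, -1.41 for extraembryonic endoderm, -0.32 for secreted proteins, -0.61 for uptake, -0.62 for parietal endoderm, -0.099 for streak signalling, 0.15 for formative epiblast, 0.064 for antioxidant, -0.085 for muscle, 0.056 for cell cycle, 0.063 for ATF4 and 0.019 for epithelial. With 1 array left out, medians ranged from -0.27 to -0.018 for anterior and definitive endoderm, 0.0597 to 0.10 for antioxidant, -0.10 to 0.086 for neuroectoderm, 0.024 to 0.14 for endothelial, -0.031 to 0.072 for epithelial, -0.066 to 0.059 for ATF4, -0.13 to 0.021 for fibroblast, -0.013 to 0.082 for formative epiblast, 0.071 to 0.13 for glycolysis, -0.093 to 0.094 for growth arrest, 0.026 to 0.10 for imprinted, -0.29 to -0.046 for streak factors, -0.18 to -0.092 for streak signalling, -0.099 to 0.28 for trophectoderm, -0.44 to -0.065 for 2-cell-like and -0.35 to -0.10 for secreted proteins. Of 3100 values of 148 named genes under the alternatives, 8 changed sign, in 5 genes: Gapdh (-0.0069 with quantile normalization, -0.053 with normexp and quantile normalization), Srebf1 (0.012 with quantile normalization, 0.012 with median scaling), Acaca (-0.021 with normexp and quantile normalization, -0.013 without background correction), Aldoa (-0.0063) and Ppp3cc (0.069), both with normexp and quantile normalization. Signals near background limit the dim genes: under normexp and quantile normalization Evx1 stood at -0.68 and Lgals2 at -0.88.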
